A study of Homo sapiens with 4 samples.

Results

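The genes described here are 40 human genes of homologous recombination and of the Fanconi anemia pathway, read from a table of 16057 genes by their symbols. All 40 were in the table and all 40 passed the filter on low values. They were measured in MM.1S, a cell line from a human multiple myeloma. One group of cultures was treated with 350 nM JG342, a compound that inhibits HSP70 chaperones through an allosteric site, and the other with the solvent DMSO. Both were collected after 26 h. Each group had 2 libraries, numbered 1 and 2, which the series text calls biological duplicates, and all came from this 1 line and 1 time point. Values are TPM, that is, reads per transcript length scaled to a constant library total. The table pairs each symbol with 1 RefSeq transcript. Where 2 values of a group are given, replicate 1 comes before replicate 2.

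Homologous recombination copies an intact sister chromatid to mend a broken DNA end, and it works in cells that have begun to copy their DNA. Nucleases trim the end, the single strand is coated, BRCA1, PALB2 and BRCA2 prepare it to invade the sister, and helicases and nucleases separate the joined molecules afterwards. The Fanconi anemia proteins unhook crosslinks between the strands at stalled forks and pass the resulting break to recombination, while the kinases ATM and ATR signal the damage and hold the cell cycle. Many of these genes are transcribed mainly around S phase, which is why their levels are read here beside those of proliferation genes. Myeloma is a cancer of plasma cells, the antibody-secreting end stage of B cells.

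The library totals lay between 994463 and 994718 TPM, and TPM carries no record of sequencing depth, so no counting intervals are given. All 8 plasma cell markers were present, between 22.0 and 1566 TPM, in each library. The B cell gene PAX5 was at most 0.26 TPM and the monocyte gene CD14 at most 0.99 TPM, although the listed monocyte gene LYZ reached 46.2 TPM. The T cell gene CD3E lay between 3.21 and 7.70 TPM. Fewer cells of a kind, such as cells in S phase, and less RNA per cell cannot be told apart in these bulk samples.

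After JG342, 10 of the 40 genes fell and none rose, at an adjusted p under 0.05 in limma, a linear model with variances shared across genes (Benjamini-Hochberg over 12042 genes). The 10 were CHEK2, EXO1, BLM, DNA2, CHEK1, FANCI, BARD1, RAD54L, TOPBP1 and FANCA, and they lost between 26.1% and 38.2% of their mean TPM. Among all fitted genes 18.4% passed, 7.62% as lower and 10.8% as higher, against 25% of these genes as lower. Log2 fold changes below are of TPM + 1, with their standard error (SE) from limma. Their median over the 40 genes was −0.29, beside 0.03 over all fitted genes, and 33 of the 40 were below 0. The 10 fell in both same-numbered pairs, which follows from their groups not overlapping. The JG342 libraries lay wholly under the DMSO libraries for 25 of the 40 genes and wholly above for 3, where 28.2% and 34.0% of all fitted genes did so.

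The calls depended on which libraries and which genes were fitted. Among all fitted genes the number of calls also dropped with each library left out and without the filter on low values. With any 1 library left out, the genes that passed were not the same 10, and no such fit kept all 10 calls. Those fits put the median of the 40 at −0.34 without DMSO replicate 1 and at −0.26 without DMSO replicate 2. They put it at −0.28 without JG342 replicate 1 and at −0.34 without JG342 replicate 2. Without the filter on low values only CHEK2 and FANCI passed, beside 295 of 16057 genes as lower. With equal medians 14 fell, beside 9.97% of all fitted genes. A block for the replicate number gave 17 that fell and 2 that rose, beside 15.7% and 19.2% of all fitted genes. The block with equal medians gave 20 that fell and none that rose, beside 19.2% of all fitted genes as lower. The block fit without scaling used variances set by expression level alone, so its p-values are given only where they change a call.

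**Figure D1:**
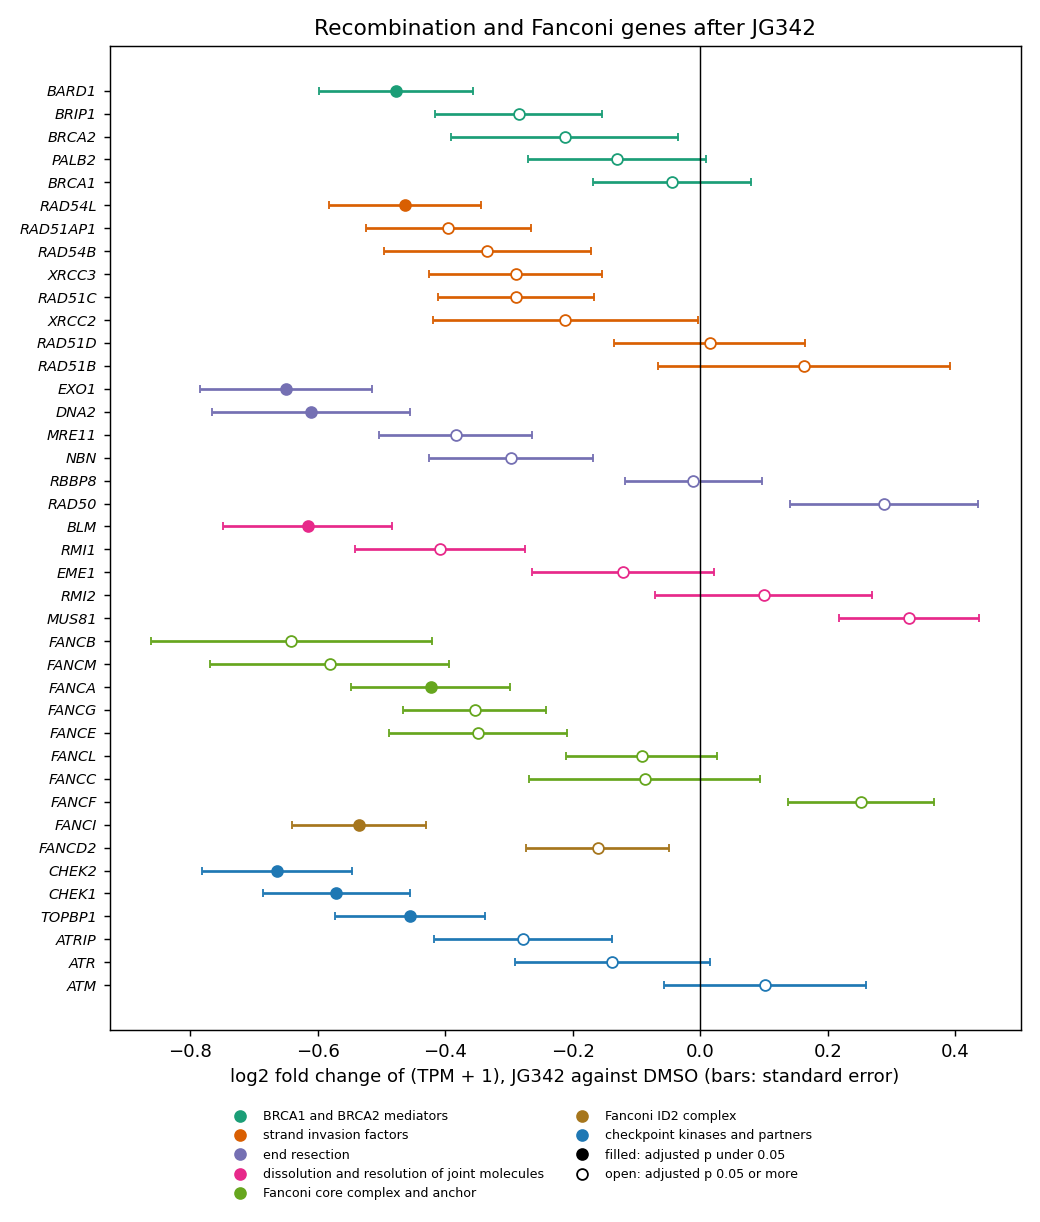
Log2 fold change of TPM + 1 (x axis, JG342 against DMSO, bars are the SE from limma) for each of the 40 genes, coloured by role. Filled points passed at an adjusted p under 0.05; all 10 filled points lie left of 0, and the 3 points farthest right, MUS81, RAD50 and FANCF, are open.

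Promoter sequences were read for the letters by which cell cycle transcription factors are known to bind, since these genes lay together on the lower side. Promoters are those of RefSeq on GRCh38.p14, from 250 bases before to 50 after the start, and 35 of the 40 genes had one. E2F sites were searched on both strands as TTTCGCGC, TTTGGCGC, TTTCCCGC, TTTGCCGC, TTCGCGCC or TTGGCGCC, spellings that can overlap one another. E2F factors drive genes at entry into S phase. The spellings were in 6 of the 35 promoters (17.1%), in 17 of 25 promoters of G1/S genes (68.0%), in 7.87% of 9617 fitted genes and in 4.75% of all 27305 promoters. Among all genes that fell they were in 12.3% of 741 promoters. Of the 10 genes that fell, 8 had a promoter and 3 of those held a spelling, EXO1, TOPBP1 and FANCA. The 3 others that held one, FANCD2, FANCC and XRCC2, did not pass the test. The windows of 30 bases below hold the match nearest the 3′ end in each of these 6 promoters. Those of PCNA, the replication clamp, and E2F1, both of which fell, are added as examples. CDK1, which also fell, held a match that is not shown. The search gave no window for RRM2, MYBL2 and MKI67, which fell too. Sequences are written 5′ to 3′ on the gene's strand, with the matched letters in capitals.
EXO1, chr1:241848197-241848226, plus strand: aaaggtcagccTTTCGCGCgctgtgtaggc
TOPBP1, chr3:133661930-133661959, minus strand: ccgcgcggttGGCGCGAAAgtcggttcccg
FANCA, chr16:89816609-89816638, minus strand: ccggggctgtaGGCGCCAAggccatgtccg
FANCD2, chr3:10026424-10026453, plus strand: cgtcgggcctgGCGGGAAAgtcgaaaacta
FANCC, chr9:95317737-95317766, minus strand: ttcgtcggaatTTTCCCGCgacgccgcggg
XRCC2, chr7:152676102-152676131, minus strand: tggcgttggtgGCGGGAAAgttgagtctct
PCNA, chr20:5126663-5126692, minus strand: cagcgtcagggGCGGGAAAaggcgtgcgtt
E2F1, chr20:33686387-33686416, minus strand: ggcaaaaaggaTTTGGCGCgtaaaagtggc
In TOPBP1 the capitals join 2 overlapping spellings. XRCC2, PCNA and FANCD2 hold the same run of 8 capitals, and FANCC holds it on the other strand. Of these genes PCNA fell and the others did not pass.

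The cell cycle homology region, read by the DREAM and MuvB complexes in genes of G2 and mitosis, was searched as TTTGAA or TTCGAA on both strands. It was in 3 of the 35 promoters (8.57%), those of ATM, BRIP1 and FANCC, and in 18 of 25 promoters of G2/M genes (72.0%). It was also in 11.4% of promoters of fitted genes, in 18.4% of those of all genes that fell and in 16.6% of all promoters. None of the 8 promoters of genes that fell held it, which says only that these letters are not in these windows. The CCAAT box, bound by NF-Y, was in 16 of the 35 (45.7%), in 35.7% of all promoters, in 37.1% of those of fitted genes and in 44.4% of those of all genes that fell, so the share of the 35 was near that of genes that fell. Among the 8 promoters of members that fell, 5 held it, as did 11 of 27 promoters of members that did not pass (40.7%). CHEK2 and BLM held it 3 times each, and CHEK1 once. Their 150 bases before the start are given with each CCAAT, or ATTGG on the other strand, in capitals; for CHEK2 one further match lies outside this stretch.
CHEK2, chr22:28741821-28741970, minus strand: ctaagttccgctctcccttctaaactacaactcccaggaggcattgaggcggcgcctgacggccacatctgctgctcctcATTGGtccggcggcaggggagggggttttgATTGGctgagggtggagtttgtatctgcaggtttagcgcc
BLM, chr15:90717196-90717345, plus strand: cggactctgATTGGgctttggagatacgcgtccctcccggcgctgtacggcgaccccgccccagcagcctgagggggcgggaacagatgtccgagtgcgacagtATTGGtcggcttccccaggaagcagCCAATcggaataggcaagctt
CHEK1, chr11:125626079-125626228, plus strand: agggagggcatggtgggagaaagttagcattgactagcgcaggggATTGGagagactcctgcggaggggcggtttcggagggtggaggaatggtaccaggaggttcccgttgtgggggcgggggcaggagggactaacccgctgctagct

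The effector kinases of the damage checkpoint fell, and the apical kinases ATM and ATR did not pass the test. The difference between effector and apical kinases was not tested. CHEK2, which acts below ATM, was at 28.8 and 29.9 TPM with DMSO and at 18.5 and 17.8 TPM with JG342. Its libraries were close within each group and far apart between groups, and it changed by −0.66 ± 0.12 (limma adjusted p 0.00686), with the smallest p of the 40 genes. CHEK1, which acts below ATR and restrains CDK activity at stalled forks, was at 66 and 73.7 TPM with DMSO and at 43.5 and 49.9 TPM with JG342. It changed by −0.57 ± 0.12 (limma adjusted p 0.0114). TOPBP1, which activates ATR, went from 60.1 and 70.4 TPM to 49.3 and 45.1 TPM, a change of −0.45 ± 0.12 (limma adjusted p 0.0285). Both JG342 libraries of CHEK1 and TOPBP1 lay under both DMSO libraries. The promoters of CHEK1 and CHEK2 held CCAAT boxes and that of TOPBP1 the E2F spelling shown above. CCAAT boxes were also in the promoters of ATM and of ATRIP, a partner of ATR, neither of which passed.

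ATM, the kinase recruited to double-strand breaks, was at 12.2 and 11.9 TPM with DMSO and at 14.9 and 11.3 TPM with JG342. The JG342 libraries lay on both sides of the DMSO libraries, and the change of 0.10 had a 95% interval from −0.26 to 0.46 (limma adjusted p 0.692). ATR, the kinase of single-stranded DNA, was at 12.3 and 12.9 TPM and then at 12.8 and 10.1 TPM, also overlapping (−0.14 ± 0.15, limma adjusted p 0.567). Its partner ATRIP did not overlap, at 22.4 and 19.8 TPM against 15.7 and 18.8 TPM, and the change of −0.28 ± 0.14 did not pass (limma adjusted p 0.200). ATRIP shares 27.9% of its exon bases with TREX1 on the same strand, so reads may have been divided between them in an unknown way.

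**Figure D2:**
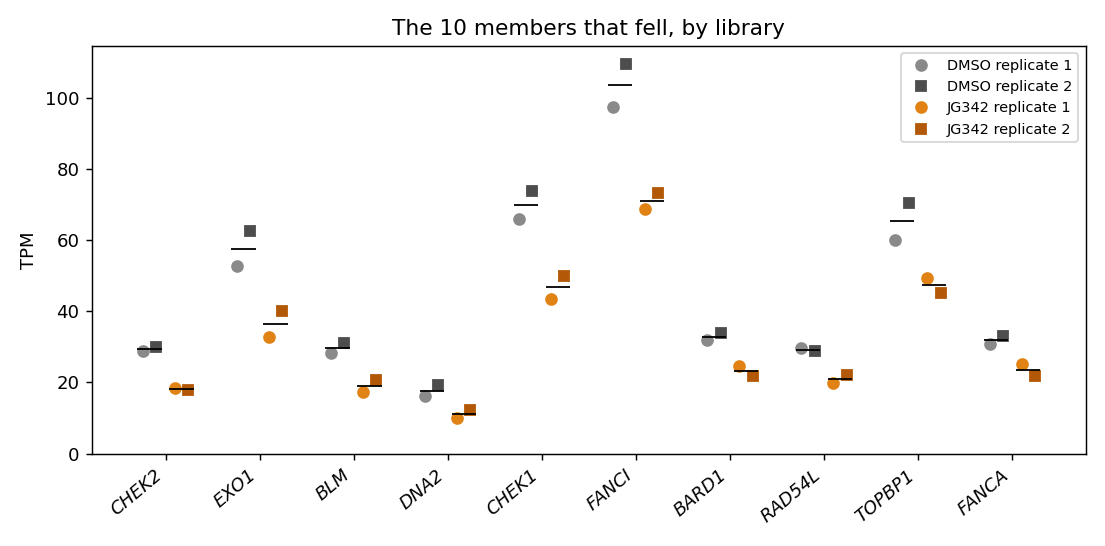
TPM (y axis) of the 10 genes that fell, in each of the 4 libraries, with the mean of each group as a line (n = 2). For each gene both JG342 libraries lie under both DMSO libraries, from 97.4 and 109.6 TPM down to 68.6 and 73.3 TPM for FANCI, the highest of them.

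Among the genes that trim broken ends, the long-range nucleases EXO1 and DNA2 fell and the others did not pass. Whether the long-range and short-range genes differ in their change was not tested. EXO1, the exonuclease that extends resection, was at 52.6 and 62.5 TPM with DMSO and at 32.8 and 39.97 TPM with JG342, a change of −0.65 ± 0.14 (limma adjusted p 0.0127). DNA2, the nuclease and helicase that works beside it with BLM, was at 16.1 and 19.3 TPM and then at 10.1 and 12.4 TPM. It changed by −0.61 ± 0.16 (limma adjusted p 0.0271). In both genes the higher library of each group was replicate 2, and the groups did not overlap.

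The MRE11, RAD50 and NBN subunits of the complex that first binds a broken end did not pass, and they lay on both sides of 0. MRE11, the nuclease, was at 23.4 and 24.1 TPM with DMSO and at 18.3 and 17.7 TPM with JG342 (−0.38 ± 0.12, limma adjusted p 0.0556). It passed in limma with the block (adjusted p 0.0117), with equal medians (adjusted p 0.0293) and with both (adjusted p 0.00888). NBN, which brings in ATM, lay lower without overlap, at 18 and 18.9 against 15.5 and 14.2 TPM (−0.30 ± 0.13, limma adjusted p 0.142). It passed only with the block and equal medians together (limma adjusted p 0.0280). The third subunit went the other way. RAD50, the ATPase that holds the ends, lay higher, at 24.2 and 31.5 against 31.7 and 36.3 TPM (0.29 ± 0.15, limma adjusted p 0.207; 0.0435 with the block and 0.0899 with the block and equal medians). JG342 replicate 1 and DMSO replicate 2 were nearly equal for RAD50, and 79.7% of its exon bases are shared with AC116366.3, an annotated gene on the same strand. RBBP8, the CtIP cofactor that starts resection, was at 67.1 and 68.8 TPM and then at 63.1 and 72.1 TPM, and its change of −0.01 had a 95% interval from −0.26 to 0.23 (limma adjusted p 0.959). Whether the 3 subunits differ from one another in their change was not tested.

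Of the 5 genes around BRCA1 and BRCA2, BARD1 fell (20%, beside 7.62% of all fitted genes) and the others did not pass. BARD1, the obligate partner that forms a ubiquitin ligase with BRCA1, was at 31.8 and 33.8 TPM with DMSO and at 24.8 and 21.9 TPM with JG342 (−0.48 ± 0.12, limma adjusted p 0.0267). BRCA1 itself was at 30.9 and 33.8 TPM and then at 29.03 and 33.7 TPM. Its groups overlapped, and its change of −0.04 had a 95% interval from −0.32 to 0.24 (limma adjusted p 0.839). With DMSO the partners stood at nearly the same TPM, 32.8 ± 1.41 for BARD1 and 32.3 ± 2.08 for BRCA1 (SD, n = 2), and at 23.4 ± 1.99 and 31.4 ± 3.30 with JG342. The difference between the 2 changes was not tested.

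BRCA2, which works on the single strand after resection, was among the lowest of the 40 genes, at 4.45 and 5.57 TPM with DMSO and at 3.91 and 4.43 TPM with JG342. The JG342 values lay just under the DMSO values, and the change of −0.21 ± 0.18 did not pass (limma adjusted p 0.439). PALB2, the bridge between BRCA1 and BRCA2, overlapped, at 13.8 and 16.3 against 13.8 and 13.4 TPM (−0.13 ± 0.14, limma adjusted p 0.552). BRIP1, the helicase bound by BRCA1 and also known as FANCJ, did not overlap, at 17.0 and 19.3 against 14.9 and 14.6 TPM (−0.28 ± 0.13, limma adjusted p 0.165; 0.0331 with the block and equal medians).

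**Figure D3:**
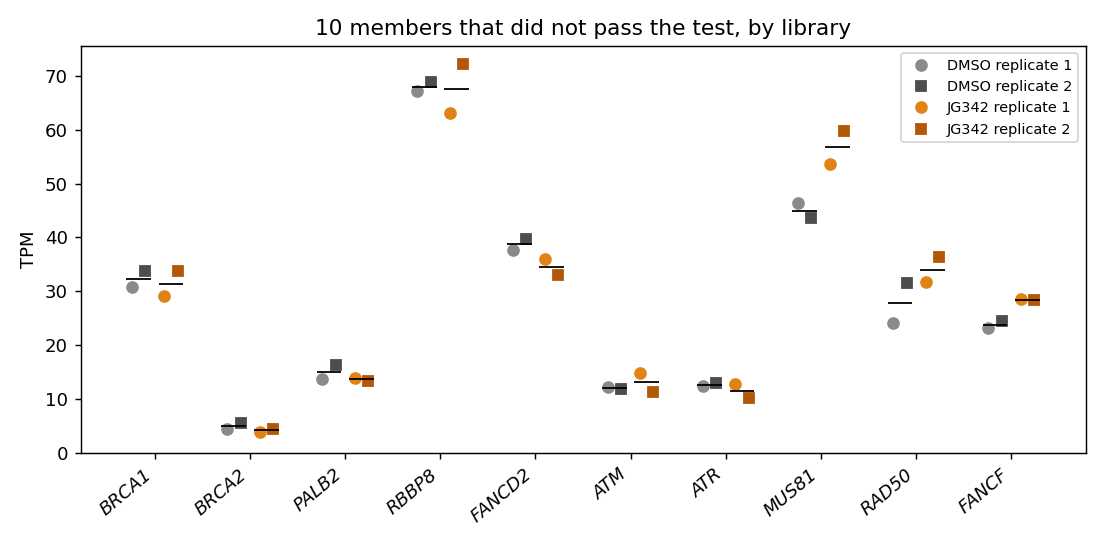
TPM (y axis) in each library of 10 genes that did not pass the test, chosen after their values were seen, with group means as lines (n = 2). BRCA1, PALB2, RBBP8, ATM and ATR overlap between groups, whereas BRCA2 and FANCD2 lie lower and MUS81, RAD50 and FANCF higher with JG342 without overlap.

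Among the 8 genes of strand invasion, 1 fell (12.5%, beside 7.62% of all fitted genes). RAD54L, the motor protein that helps the end invade the sister strand, was at 29.6 and 28.9 TPM with DMSO and at 19.9 and 21.97 TPM with JG342 (−0.46 ± 0.12, limma adjusted p 0.0281). Both JG342 libraries lay well under both DMSO libraries. RAD54L shares 25.1% of its exon bases with LRRC41 on the other strand, and the sources used here do not say whether reads were counted by strand. LRRC41, chosen after its values were seen, moved the other way, from 30.4 and 30.8 TPM to 41.3 and 45.9 TPM (0.49 ± 0.11, limma adjusted p 0.0180). RAD51AP1, which promotes strand invasion, lay lower without overlap, at 38.6 and 44.2 against 28.6 and 33.99 TPM (−0.40 ± 0.13, limma adjusted p 0.0649; 0.00262 with the block). RAD54B, a relative of RAD54L, was at 7.10 and 8.72 against 5.95 and 6.13 TPM (−0.33 ± 0.16, limma adjusted p 0.185), and 59.1% of its exon bases are shared with FSBP.

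RAD51B, RAD51C, RAD51D, XRCC2 and XRCC3, which form complexes that steady the filament on the single strand, did not pass in any direction. RAD51C was at 45.5 and 44.2 TPM with DMSO and at 33.3 and 40.04 TPM with JG342 (−0.29 ± 0.12, limma adjusted p 0.134; 0.0297 with the block). XRCC3, its partner in one of the complexes, was at 18.1 and 17.8 against 13.3 and 15.8 TPM (−0.29 ± 0.14, limma adjusted p 0.172), and 76.7% of its exon bases are shared with KLC1 on the other strand. The groups of both genes lay apart, with JG342 replicate 2 nearer to DMSO. XRCC2 was the most variable of the 40 by its SE among genes above 5 TPM, at 39.9 and 51.1 TPM and then at 30.6 and 49.3 TPM. Its replicates differed by more than its groups, and the change of −0.21 ± 0.21 did not pass (limma adjusted p 0.514). RAD51D was at 13.7 and 17.7 against 15.8 and 15.7 TPM. Its change of 0.01 had a 95% interval from −0.33 to 0.36 (limma adjusted p 0.959), and its sign was negative after scaling to equal medians (−0.05). The annotated gene RAD51L3-RFFL matches 46.8% of the RAD51D transcript in the same orientation, so part of the RAD51D reads is uncertain. RAD51B had the lowest mean over the 4 libraries of the 40, at 1.53 and 2.72 against 2.47 and 2.40 TPM, and overlapped (0.16 ± 0.23, limma adjusted p 0.662).

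Of the genes that take apart joined DNA molecules, BLM fell and the others did not pass. BLM, the helicase of the dissolution complex, was at 28.4 and 31.0 TPM with DMSO and at 17.4 and 20.8 TPM with JG342 (−0.62 ± 0.13, limma adjusted p 0.0142). RMI1, which holds the complex together, lay lower without overlap, at 26.4 and 31.5 against 20.4 and 22.6 TPM (−0.41 ± 0.13, limma adjusted p 0.0640; 0.00449 with the block). RMI2, the small subunit, overlapped, at 32.4 and 36.5 against 30.6 and 44.6 TPM (0.10 ± 0.17, limma adjusted p 0.723).

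MUS81, the nuclease that cuts joined molecules in late cell cycle phases, had the largest positive change of the 40 genes. It was at 46.3 and 43.6 TPM with DMSO and at 53.6 and 59.8 TPM with JG342, so that both JG342 libraries lay above both DMSO libraries. The change of 0.33 ± 0.11 missed the threshold (limma adjusted p 0.0697). It passed in limma with the block (adjusted p 0.00812) and not with the block and equal medians (adjusted p 0.0786). MUS81 shares 13.9% of its exon bases with the abundant CFL1 on the other strand, and CFL1 lay on the lower side after JG342 (−0.31 ± 0.10, limma adjusted p 0.0517). EME1, the partner of MUS81, overlapped, at 17.7 and 21.2 against 16.5 and 19.1 TPM (−0.12 ± 0.14, limma adjusted p 0.595). EME1 shares 16.4% of its exon bases with the more abundant LRRC59 on the other strand, which did not pass (−0.19 ± 0.09, limma adjusted p 0.166).

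In the Fanconi pathway, FANCI and FANCA fell. FANCI and FANCD2 form the clamp that is ubiquitinated at a crosslink. FANCI was the highest of the 40 genes, at 97.4 and 109.6 TPM with DMSO and at 68.6 and 73.3 TPM with JG342 (−0.54 ± 0.11, limma adjusted p 0.0102). FANCD2 lay lower by less, at 37.6 and 39.7 against 36.04 and 33.01 TPM, and did not pass (−0.16 ± 0.11, 95% interval −0.41 to 0.09, limma adjusted p 0.354). A pseudogene, FANCD2P2, matches 27.4% of the FANCD2 transcript at up to 96.5% identity, so part of its reads is uncertain. The difference between the changes of the 2 partners was not tested.

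The core complex is the ubiquitin ligase that marks this clamp. Of its 8 genes listed here 1 fell (12.5%, beside 7.62% of all fitted genes). FANCA was at 30.7 and 33.03 TPM with DMSO and at 25.3 and 21.8 TPM with JG342 (−0.42 ± 0.12, limma adjusted p 0.0462). It did not pass without the filter on low values (limma adjusted p 0.104). It shares 23.6% of its exon bases with ZNF276 on the other strand, which did not pass (−0.18 ± 0.12, limma adjusted p 0.314). FANCG, which binds FANCA, lay lower without overlap, at 54.4 and 62.1 against 43.95 and 46.6 TPM (−0.35 ± 0.11, limma adjusted p 0.0590; 0.00379 with the block). FANCE, the link to FANCD2, was at 13.1 and 12.5 against 10.4 and 9.30 TPM (−0.35 ± 0.14, limma adjusted p 0.116; 0.0245 with the block and equal medians).

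FANCB and FANCM had changes of the size seen in the genes that fell, at low levels and with wider errors, and did not pass. FANCB, a scaffold of the ligase, was at 3.76 and 4.89 TPM with DMSO and at 1.88 and 3 TPM with JG342 (−0.64 ± 0.22, limma adjusted p 0.0744; 0.00396 with the block). FANCM, the translocase that anchors the complex to DNA, was at 3.31 and 3.05 against 1.91 and 1.68 TPM (−0.58 ± 0.19, limma adjusted p 0.0623; 0.0146 with the block). Neither gene overlapped between groups. The pseudocount of 1 TPM makes the fold change of such low genes look smaller than it is.

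The rest of the core lay near 0 or higher. FANCL, the catalytic subunit, overlapped, at 44.5 and 37.9 against 38.8 and 38.1 TPM (−0.09 ± 0.12, limma adjusted p 0.629), as did FANCC, at 8.22 and 11.95 against 9.26 and 9.31 TPM (−0.09 ± 0.18, limma adjusted p 0.778). FANCF, an adaptor within the complex, lay higher without overlap, at 23.1 and 24.4 against 28.6 and 28.3 TPM (0.25 ± 0.12, limma adjusted p 0.162). FANCL shares 18.7% and FANCF 11.3% of their exon bases with VRK2 and GAS2 on the other strand.

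Most of the proliferation genes listed for comparison fell. Of 30 genes of the G1/S transition and DNA synthesis 26 fell, with a median of −0.58, and of 30 genes of G2 and mitosis 24 fell, with a median of −0.61, while none of either list rose. MKI67, the proliferation marker, went from 153.3 and 171.3 TPM to 93.2 and 99.8 TPM (−0.74 ± 0.10, limma adjusted p 0.00233). PCNA, the replication clamp, went from 532 and 584 TPM to 345 and 412 TPM (−0.56 ± 0.11, limma adjusted p 0.00998). CDK1, the mitotic kinase, went from 153.1 and 181.7 TPM to 96.4 and 109.1 TPM (−0.70 ± 0.12, limma adjusted p 0.00533). Both JG342 libraries of these 3 genes lay under both DMSO libraries. The smallest p-values of the 2 lists included those of RRM2, a ribonucleotide reductase subunit (−1.01 ± 0.09, limma adjusted p 0.000357), and TOP2A, the mitotic topoisomerase (−0.67 ± 0.10, limma adjusted p 0.00276). That proliferation genes fell in these data was known when the lists were chosen, so they are a description and no independent support.

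Beside them the recombination and Fanconi genes spread from values as low as those of proliferation genes up to values above 0. CHEK2, EXO1, BLM, DNA2 and FANCB had changes below the medians of both proliferation lists. At the other end 7 of the 40 genes were above 0, against 1 of 30 and none of 30.

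**Figure D4:**
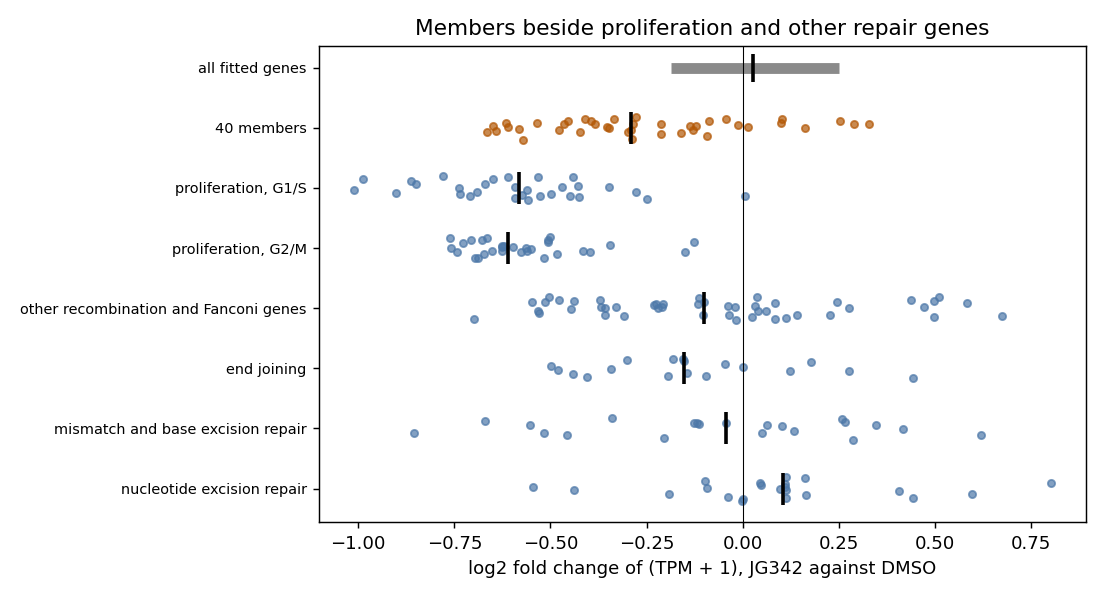
Log2 fold change of TPM + 1 (x axis) for each gene of each list, with the list median as a black bar; the grey bar spans the quartiles of all fitted genes, −0.19 to 0.25. The 40 members lie between −0.66 and 0.33 and centre on −0.29, between the proliferation lists at −0.58 and −0.61 and all genes at 0.03.

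The medians in each library come from the same values as the fold changes and are no independent support. In each library the 40 genes lay between the proliferation lists and all fitted genes. After subtracting each gene's mean over the 4 libraries, the median of the 40 genes was 0.09 and 0.21 with DMSO and −0.17 and −0.13 with JG342. The G1/S list stood at 0.24 and 0.36 with DMSO and at −0.38 and −0.23 with JG342, and the G2/M list at 0.17 and 0.43, then −0.43 and −0.17. DMSO replicate 2 was the highest library for all 3 groups of genes. Of the 40 genes 31 stood higher in the second DMSO library than in the first, as did 58.9% of all fitted genes, and leaving this library out ended each of the 10 calls. How far the level of proliferation genes accounts for the lower recombination genes was not tested.

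**Figure D5:**
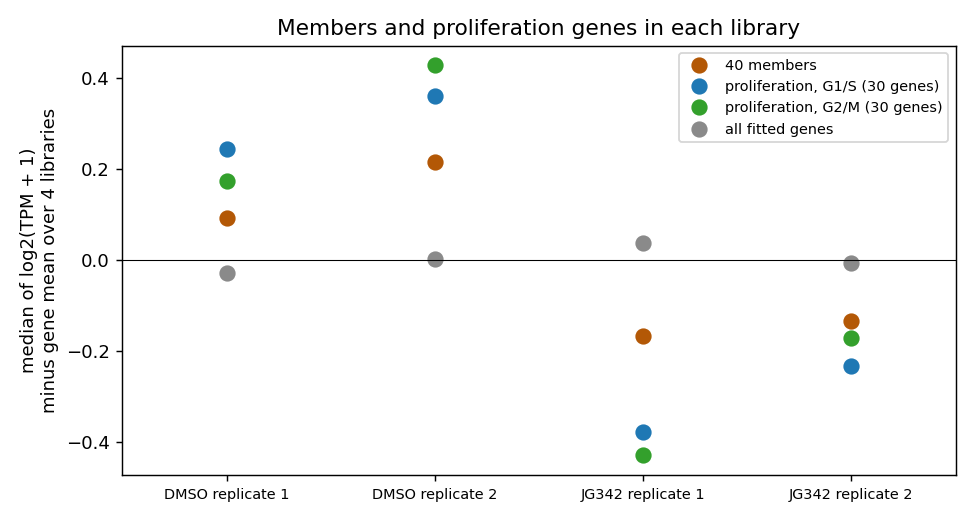
Median over each list (y axis) of log2(TPM + 1) minus the gene's mean over the 4 libraries, for each library (x axis). The 40 members keep the same sign as both proliferation lists in every library, at 0.09 and 0.21 with DMSO and −0.17 and −0.13 with JG342, with all fitted genes near 0.

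Several regulators known to act on promoters of cell cycle genes fell. Of 23 genes encoding E2F, DREAM and related cell cycle regulators, 7 fell and 3 rose, with a median of −0.05, where 7.62% of all fitted genes fell and 10.8% rose, so the number that rose was near that of all genes. The activators E2F1 (−0.47 ± 0.10, limma adjusted p 0.0161), MYBL2 (−0.69 ± 0.13, limma adjusted p 0.00780) and FOXM1 (−0.57 ± 0.10, limma adjusted p 0.00633) fell. E2F2 and E2F8, an activator and a repressor of the family, had the smallest p-values of the list, at −0.99 ± 0.11 and −0.90 ± 0.12 (limma adjusted p 0.000754 and 0.00202). One of those that rose is an inhibitor of the cell cycle. CDKN1A, which encodes the CDK inhibitor p21, rose from 110.9 and 95.2 TPM to 172.3 and 132.2 TPM (0.55 ± 0.14, limma adjusted p 0.0257). It did not pass with equal medians (limma adjusted p 0.0558) or without the filter on low values (limma adjusted p 0.113). Without that filter LRRC41 (limma adjusted p 0.0573), PCNA (0.0642), E2F1 (0.0568) and MYBL2 (0.0625) also missed the threshold.

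The other genes of the pathway, 47 of a list of 48 in the table, had a median of −0.10. Of these, 8 fell (17.0%) and 5 rose (10.6%), beside 7.62% and 10.8% of all fitted genes, so the share that rose was that of all genes. UBE2T, the E2 enzyme that works with FANCL, fell from 175.2 and 198.3 TPM to 105.04 and 124.7 TPM (−0.70 ± 0.12, limma adjusted p 0.00519). ZSWIM7, a member of the Shu complex, rose from 22.5 and 23.1 TPM to 37.99 and 35.96 TPM (0.67 ± 0.11, limma adjusted p 0.00554). FANCL, the ligase with which UBE2T works, changed by −0.09 ± 0.12 and did not pass, and the difference between them was not tested.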

How the data were processed

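RNA from 4 MM.1S cultures was sequenced on a BGISEQ-500, per the labels' protocols. The authors deposited 1 value per gene and library, read here as TPM from the column sums, since no header or label names the unit. HISAT2 2.0.4, Bowtie2 2.2.5 and RSEM 1.2.12 are named without roles, per the submitters' processing notes; build, annotation, filters and strand are not given in the sources used here. TPM keeps no depth, so precision rests on 2 libraries per group.

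Values were transformed to log2(TPM + 1). Genes averaging 1 TPM or more over the libraries (12042) were fitted with limma 3.58.1 in R 4.3.3 (eBayes with trend, treatment only, two-sided), and 4015 were left out. p-values were adjusted by Benjamini-Hochberg over all 12042 genes at 0.05. The main fit had 2 residual and 6.89 prior degrees of freedom. Intervals are 95% intervals from limma. Same-numbered libraries share a prefix in the sample descriptions, and their deviations correlated across genes at r = 0.27, so a fit with the replicate number as a block is an alternative. That fit had 1 residual degree of freedom and an infinite prior; with equal medians its prior was 7.49. The script was tested on simulated data.

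The members and lists were chosen with earlier results of these data known. All members may be named; others are the 2 genes with the smallest p of each list and 9 fixed genes, some of which are not reported here. Exon overlaps and copies (BLAST 2.17.0, at least 95% identity over at least 20% of a transcript) came from GENCODE release 29. Alternatives were other pseudocounts, filters, scalings, variance models and leaving out each library.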

Additional observations from a re-analysis of the deposited data

How the results depend on the processing

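Of 12042 fitted genes 2221 passed in all, 58.7% of them higher. The count was 828 without the filter on low values, 4207 with the replicate block and 3985 with the block and equal medians, and ran from 767 to 1825 when each library was left out. The share of higher genes was 44.6% after scaling to equal medians, 50.8% after quantile normalization, 65.1% without the variance trend and 42.0% with the block and equal medians. Of the 40 members 10 passed; the count was 2 without the filter, 19 with the block, 20 with the block and equal medians, and 0 to 10 when each library was left out. Scaling to equal medians, quantile normalization and a filter of 5 TPM each kept the 10 and added 4. Among all fitted genes 1200 of 12042, 984 of 12042 and 991 of 9814 then passed as lower. In the main fit 917 of 12042 did so. Without the variance trend 6 of the 10 and FANCM passed, beside 526 of 12042 fitted genes as lower. BARD1, RAD54L, TOPBP1 and FANCA did not pass in that fit. The members' median stayed between −0.37 and −0.26. The 10 that fell kept their sign under each alternative run. For the fits that leave out a library this follows from their groups not overlapping. Signs changed only for members that did not pass: RAD51D was −0.050 with equal medians, −0.068 with quantile normalization and −0.050 with the block and equal medians. With each library left out, BRCA1 ran from −0.15 to 0.060, FANCC from −0.33 to 0.16, FANCL from −0.21 to 0.021, RAD51B from −0.12 to 0.44, RAD51D from −0.16 to 0.19 and XRCC2 from −0.55 to 0.12. ATM ran from −0.082 to 0.29, ATR from −0.29 to 0.017, EME1 from −0.24 to 0.0027, RMI2 from −0.16 to 0.36 and RBBP8 from −0.11 to 0.085. Such fits leave a lone library assumed to vary like the others. Members under 5 TPM (4 of 40) are limited by the pseudocount and by unknown depth.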

Other observations

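The other repair pathways are given beside all fitted genes, of which 7.62% fell and 10.8% rose. Of 18 end-joining genes measured, 4 fell (22.2%) and 1 rose (5.56%), with a median of −0.15. XRCC5, the Ku80 subunit that binds broken ends, fell from 368 and 417 TPM to 273 and 281 TPM (−0.50 ± 0.10 SE, limma adjusted p 0.00979). PARP1, the break sensor, fell from 548 and 619 TPM to 429 and 429.8 TPM (−0.44 ± 0.10, limma adjusted p 0.0145). Among 21 mismatch and base excision repair genes 4 fell (19.0%) and 3 rose (14.3%), with a median of −0.04. UNG, the uracil glycosylase, which is also on the G1/S list, changed by −0.67 ± 0.13 (limma adjusted p 0.00900).

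Of 22 nucleotide excision repair genes 2 fell (9.09%) and 3 rose (13.6%), shares near those of all fitted genes, with a median of 0.10. XPC, its lesion sensor, rose from 22.6 and 23.9 TPM to 37.8 and 33.6 TPM (0.60 ± 0.12, limma adjusted p 0.0108). UVSSA, of the branch that clears stalled RNA polymerase, rose from 9.02 and 8.61 TPM to 17.9 and 14.5 TPM (0.80 ± 0.15, limma adjusted p 0.00852). Without the filter on low values XRCC5, PARP1, UNG, XPC and UVSSA missed the threshold, at limma adjusted p from 0.0504 to 0.0622. Whether the pathways differ from one another was not tested.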
